A study of Mus musculus with 12 samples.

Results

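The genes described here are 51 genes of mitosis and the spindle, taken from a fixed list of symbols and matched to the Ensembl gene identifiers of the count table. All 51 were among the 24187 genes of that table, and all 51 passed the filter on low counts, which kept 22581 genes. RNA was sequenced from frozen liver of 12 mice. The 3 control mice, which the study calls healthy controls, had no injury with APAP (paracetamol). The 5 vehicle mice were injured with APAP at a labelled dose of 350 mg/kg and given PBS. The 4 hAAM mice were given the same injury followed by cryopreserved human alternatively activated macrophages. The hAAMs were grown from human blood monocytes with CSF1, IL-4 and IL-13 and were injected into the tail vein. The study's methods describe adult mice of either sex for this model, named C57BL/6 J in one passage and C57BL6/JOlaHsd in another, and no genetic alteration is named for any group. The dose is in conflict between the sources: the labels give 350 mg/kg for all injured livers, while the study presents its RNA-seq together with a severe model that used a higher dose. More than one culling time is also named, and neither the dose nor the time of the sequenced livers could be settled.

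Mitosis is driven by the kinase CDK1, which becomes active when it binds cyclin A or cyclin B. Microtubule motors of the kinesin family and their partners build the spindle, and kinetochores attach each chromosome to it. A checkpoint holds back the anaphase-promoting complex until all chromosomes are attached, after which cohesion is released and the cell divides. The transcripts of this machinery are made late in the cell cycle, in S phase and above all in G2, and they are low in resting cells. An adult liver is almost wholly at rest, and hepatocytes, endothelial cells and macrophages can all re-enter the cycle after an injury such as APAP, which kills hepatocytes around the central veins.

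Promoters of such late genes often carry a pair of short elements. One is the cell cycle genes homology region (CHR), bound by the DREAM and MuvB complexes, and the other is the CCAAT box, bound by NF-Y. The RefSeq promoter table for GRCm38.p6 held 46 promoters of 41 of the members. No entry was found for Incenp, Kif20a, Spc24, Cdc25c, Smc4, Ccna2, Aurkb, Pbk, Foxm1 and Tpx2. The letters TTTGAA or TTCGAA (CHR) and CCAAT were searched on both strands, so that TTCAAA and ATTGG count as well. The 150 bases before the start are printed for 8 members, namely the 6 with an entry that passed the test in either comparison with control, and Mki67 and Top2a, the usual markers of proliferation. Each runs 5′ to 3′ on the gene's strand, with CHR and CCAAT letters in capitals.
Ttk, chr9:83834539-83834688, plus strand: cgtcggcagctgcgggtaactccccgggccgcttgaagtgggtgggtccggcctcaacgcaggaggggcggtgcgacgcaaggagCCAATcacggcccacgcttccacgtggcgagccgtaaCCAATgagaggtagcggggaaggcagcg
Kif20b, chr19:34922208-34922357, plus strand: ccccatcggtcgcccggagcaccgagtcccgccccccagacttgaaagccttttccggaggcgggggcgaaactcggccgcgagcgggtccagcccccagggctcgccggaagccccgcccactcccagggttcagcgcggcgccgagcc
Kif18a, chr2:109280588-109280737, plus strand: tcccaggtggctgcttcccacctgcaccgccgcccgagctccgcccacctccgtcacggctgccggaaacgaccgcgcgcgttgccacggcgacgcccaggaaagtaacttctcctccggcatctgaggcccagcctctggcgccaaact
Bub1b, chr2:118598061-118598210, plus strand: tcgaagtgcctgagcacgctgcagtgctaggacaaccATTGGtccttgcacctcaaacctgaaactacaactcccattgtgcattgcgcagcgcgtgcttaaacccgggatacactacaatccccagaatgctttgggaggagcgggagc
Spc25, chr2:69206214-69206363, minus strand: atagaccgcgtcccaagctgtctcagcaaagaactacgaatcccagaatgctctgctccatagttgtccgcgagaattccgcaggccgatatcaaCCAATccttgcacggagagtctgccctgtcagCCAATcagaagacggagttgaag
Smc2, chr4:52439071-52439220, plus strand: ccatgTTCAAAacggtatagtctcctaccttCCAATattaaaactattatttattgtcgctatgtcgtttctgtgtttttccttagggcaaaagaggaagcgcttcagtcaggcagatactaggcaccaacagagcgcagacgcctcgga
Top2a, chr11:99024190-99024339, minus strand: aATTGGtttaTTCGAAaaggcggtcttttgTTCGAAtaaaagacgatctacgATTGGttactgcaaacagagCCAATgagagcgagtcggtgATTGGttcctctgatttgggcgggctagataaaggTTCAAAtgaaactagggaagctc
Mki67, chr7:135716380-135716529, minus strand: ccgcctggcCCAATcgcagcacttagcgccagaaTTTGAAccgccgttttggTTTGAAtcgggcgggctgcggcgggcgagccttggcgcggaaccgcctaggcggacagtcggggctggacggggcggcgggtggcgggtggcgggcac

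Top2a carried 3 CHR and 4 CCAAT matches in these bases, Mki67 2 and 1, and Smc2 1 and 1. Ttk and Spc25 held 2 CCAAT letters each and Bub1b held 1, with no CHR, and Kif20b and Kif18a held neither. In the 50 bases after the start, Kif20b held 2 CHR matches, Ttk, Spc25, Bub1b and Smc2 held 1 each, and Kif18a, Top2a and Mki67 held 0. Over the members as a whole, CCAAT was found in the 150 bases before the start in 31 of 46 promoters (67.4%), beside 24.5% of all 32851 RefSeq promoters. At least 2 CCAAT matches were found in 41.3% of the members' promoters, beside 6.02% of all promoters. CHR was found before the start in 34.8% of the members' promoters, beside 9.70%, and in the 50 bases after the start in 43.5%, beside 2.46%. Both motifs stood together before the start in 28.3%, beside 2.43%. Promoters of the same gene can overlap, as those of Ect2 and of Prc1 do, so a shared match is counted more than once. A match or its absence says nothing of whether a factor bound there.

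**Figure D1:**
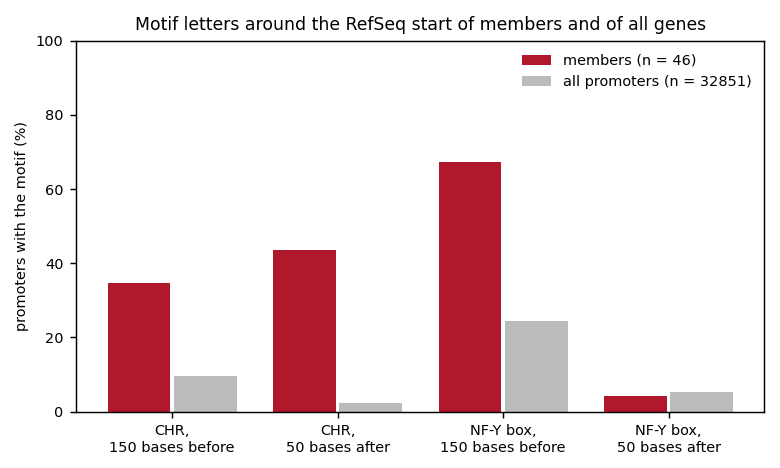
The percentage of promoters that hold CHR or CCAAT (NF-Y box) letters is shown for the 46 promoters of members (red) and for all 32851 RefSeq promoters (grey), in the 150 bases before and the 50 bases after the start. CCAAT letters lay before the start (67.4% of members' promoters) and seldom after it (4.35%), while CHR letters were found on both sides (34.8% before, 43.5% after).

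Total counts ranged from 60870399 to 74056505 in the control livers, from 50859599 to 61826952 in the vehicle livers and from 47391650 to 55379420 in the hAAM livers. Alb and the other hepatocyte markers were the most abundant of the marker lists in every liver. The libraries of vehicle replicate 3 and hAAM replicate 4 lay close to each other: their counts differed by 1.19 times the counting noise, while the other 35 pairs of injured livers differed by 2.37 to 4.96 times. Both are kept as labelled, although they stand on opposite sides of the comparison of hAAM with vehicle. Whether they come from separate livers was not tested. The main counts are also given without this pair. Values below are CPM (counts scaled to a fixed library total) after TMM scaling, listed in the order of the replicate numbers. The log2 fold changes come from edgeR's quasi-likelihood test fitted to all genes and all 12 livers, with their standard error (SE) and the false discovery rate (FDR) of Benjamini and Hochberg over 22581 genes. A gene is called at an FDR under 0.05. The comparisons of vehicle and of hAAM livers with control share the same 3 control livers. The numbers in the labels do not say that livers were handled together, so p-values measure the spread between these livers.

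At rest the members were low. Per kilobase of exon, the median over the members was 0.268 CPM in the control livers, 0.457 in the vehicle livers and 0.514 in the hAAM livers. On this per-length scale Bub3 was the highest in the control livers at 2.99, followed by Smc4 at 2.25, Spc24 at 1.40, Mki67 at 1.17 and Aurka at 1.11. The lowest were Cdc25c at 0.0263, Ttk at 0.0725 and Kif18a at 0.0783. The phosphatase Cdc25c, which switches CDK1 on, had between 4 and 44 reads in a liver, the fewest of any member. Counting error weighs most on such genes.

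After APAP and vehicle the members lay higher in most livers, but few passed the test. 4 of the 51 were called higher, namely the checkpoint kinase Ttk, the kinesin Kif20b, the kinetochore subunit Spc25 and the condensin subunit Smc2, and none was called lower. That is 7.84% of the members, below the 15.0% of all tested genes called higher (14.8% were called lower). The fold change was positive for 50 of 51 members, with a median log2 fold change of 0.84 beside 0.01 over all genes, and it ran from -0.12 for Spc24 to 1.72 for Ttk. 20 members had an unadjusted p under 0.05, none of them lower, beside 4811 of 22581 genes higher at that p. In 13 members (25.5%) every vehicle liver was above every control liver, beside 17.5% of all genes. DESeq2, the tool of the study's methods, called 15 members higher (29.4%), beside 17.1% of all genes, and its calls held the 4 of edgeR. Without vehicle replicate 3 and hAAM replicate 4, edgeR called 7 members (13.7%), beside 16.0% of all genes, and Ttk was no longer among them.

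In hAAM livers against control, 6 members were called higher and none lower: Ttk, Kif20b and Smc2 again, with the checkpoint pseudokinase Bub1b, the kinesin Kif18a and the transcription factor Foxm1. The share was 11.8%, beside 10.7% of all genes called higher (9.96% were called lower), which is near the background. 50 of 51 fold changes were positive, with a median log2 fold change of 1.05 beside 0.02 over all genes. The range ran from -0.07 for Spc24 to 1.88 for Pbk, a mitotic kinase whose FDR of 0.055 missed the threshold. 32 members had an unadjusted p under 0.05, none of them lower, beside 4175 of 22581 genes higher at that p. Every hAAM liver was above every control liver in 25 members (49.0%), beside 14.3% of all genes. DESeq2 called 22 members higher (43.1%), beside 13.6% of all genes, and its calls held all 6 of edgeR. The edgeR count was 9 (17.6%) without the close pair of libraries, beside 11.1% of all genes. It fell to 0 without control replicate 1 or control replicate 3, and to 1 without control replicate 2, hAAM replicate 1 or hAAM replicate 2, fits in which 4.82% to 7.28% of all genes were called higher. It rose to 23 without hAAM replicate 3, beside 12.9%.

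**Figure D2:**
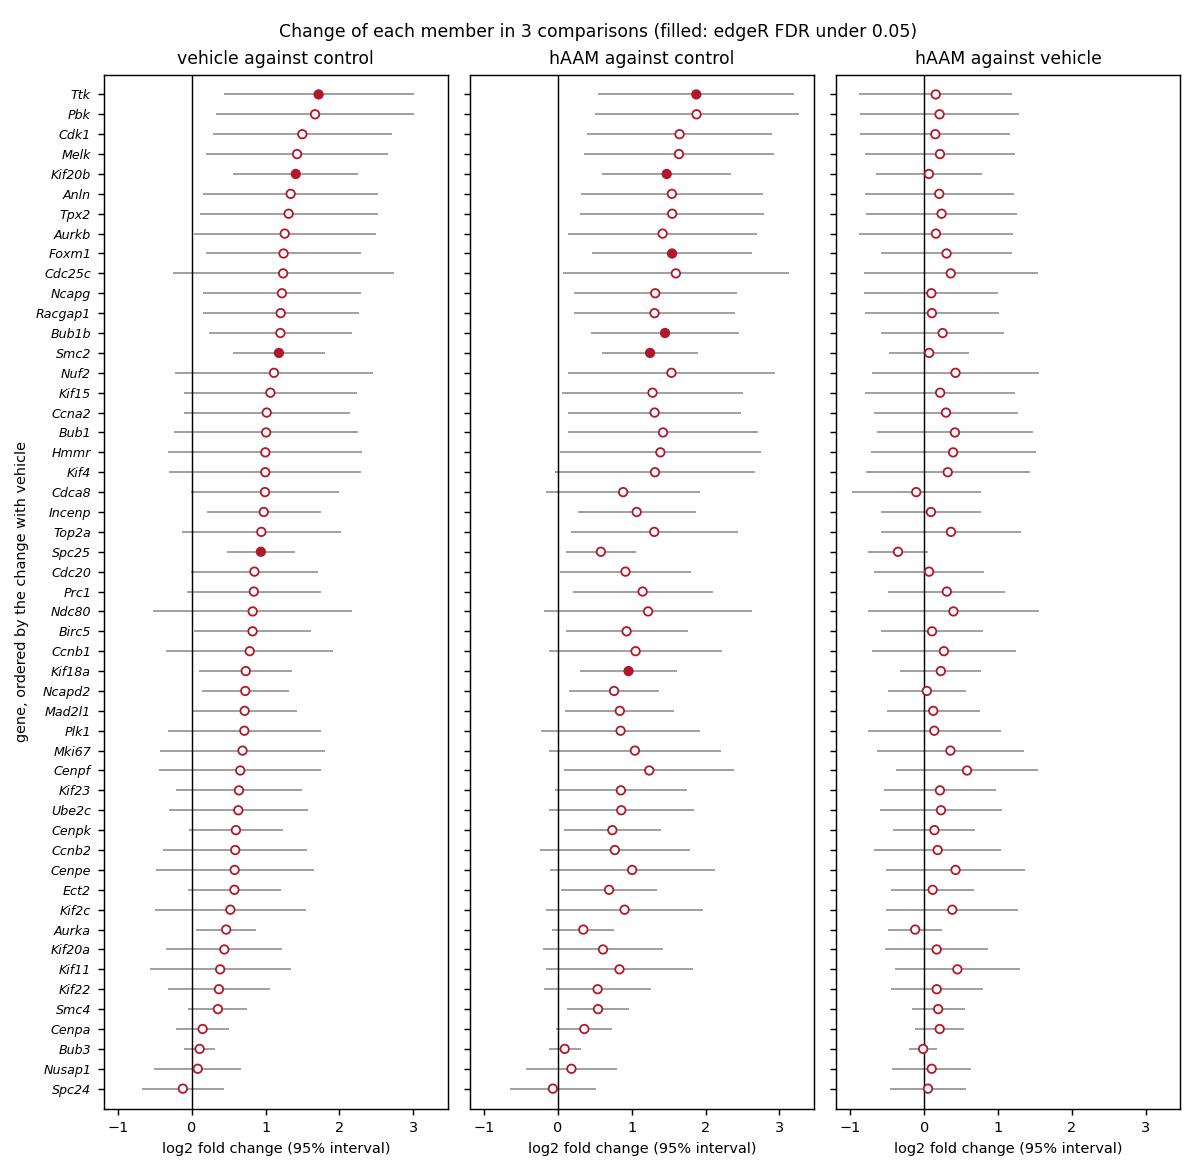
The log2 fold change of each of the 51 members is shown with its 95% interval for vehicle against control, hAAM against control and hAAM against vehicle, with filled points for an FDR under 0.05 in edgeR. Nearly all points of the first 2 panels lie to the right of 0 (50 of 51 in each), 4 and 6 of them filled, and all 51 intervals of the third panel include 0.

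The spread between livers of one group was much wider for these genes than over all genes in the injured groups, and a little wider in the control group. The comparison was not matched for expression level. The median SD of log2 CPM over the members was 0.261 in the control livers, 0.712 in the vehicle livers and 0.778 in the hAAM livers, beside 0.214, 0.223 and 0.256 over all genes. The livers differed as a whole rather than gene by gene. The median over the members of the log2 difference from the control mean was 1.31, 0.457, 0.386, 1.54 and -0.051 in vehicle replicates 1 to 5. In hAAM replicates 1 to 4 it was 1.91, 1.16, 0.231 and 0.448, and the control livers lay at -0.165, 0.128 and 0.030. Vehicle replicates 1 and 4 and hAAM replicates 1 and 2 were thus high, vehicle replicates 2 and 3 and hAAM replicates 3 and 4 lay a little above control, and vehicle replicate 5 lay at the control level.

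The same order of livers recurred in gene after gene. hAAM replicate 1 was the highest of the 12 livers in 45 of 51 members, vehicle replicate 4 in 4, and vehicle replicates 1 and 5 in 1 each. Vehicle replicate 5 was the lowest of the 9 injured livers in 38 members. All 51 members were above every control liver in vehicle replicate 1, but only 14 were in vehicle replicate 5. Over the 9 injured livers, after the mean of each group was subtracted, the Pearson correlation between 2 members had a median of 0.918, and 1273 of 1275 pairs were positive. All these points share their libraries and scaling. Neither these counts per liver nor these correlations were made over all genes, so whether this order is particular to the members was not tested. The median was 0.940 without the close pair of libraries and 0.897 without hAAM replicate 1. The members least like the rest were Spc25, Spc24 and Cenpa, with a median correlation to the other members of 0.268, 0.424 and 0.541.

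**Figure D3:**
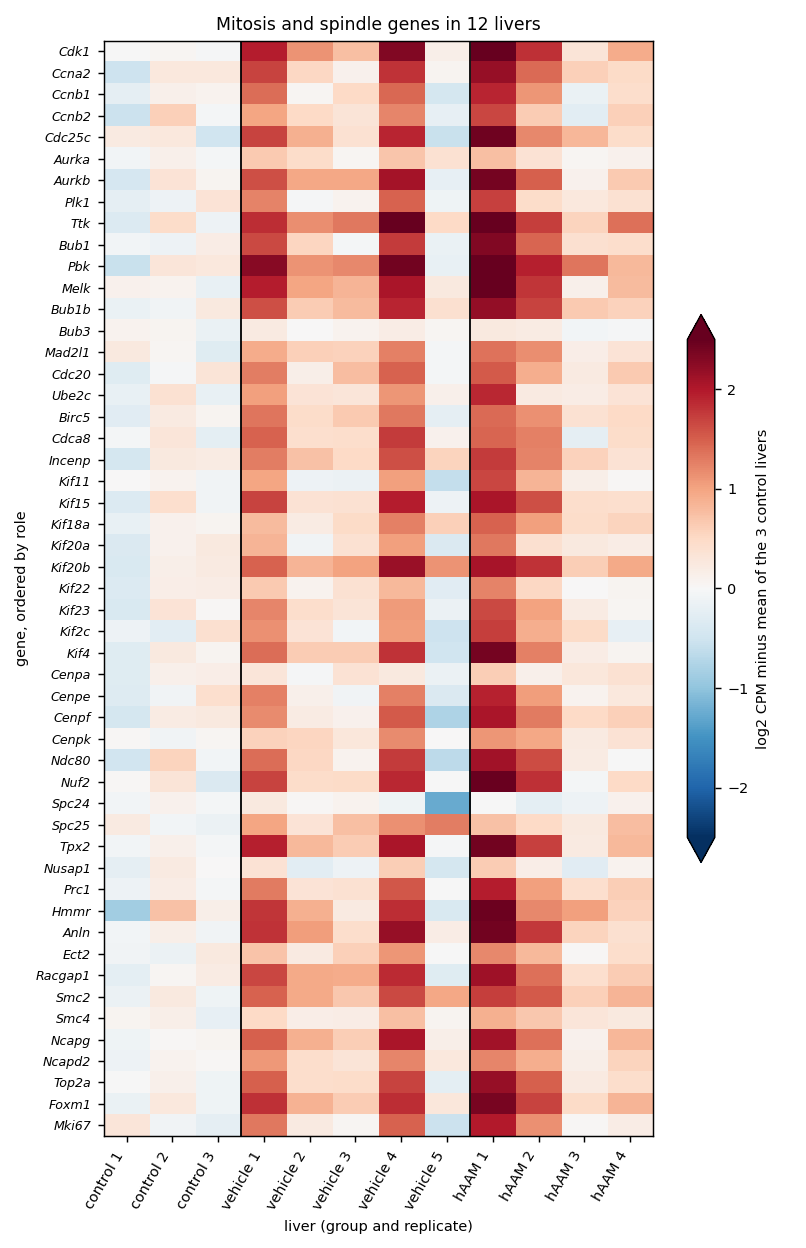
Each cell gives the log2 CPM of a member (rows, ordered by role) in a liver (columns) minus the mean of the 3 control livers, with colours saturating at the ends of the scale. Vehicle replicates 1 and 4 and hAAM replicates 1 and 2 are red in nearly every row (medians 1.31, 1.54, 1.91 and 1.16), while vehicle replicate 5 is near white or blue (median -0.051).

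Mki67 encodes the Ki-67 protein that coats mitotic chromosomes and is the standard stain for cycling cells (ENSMUSG00000031004, chr7:135689784-135716361, minus strand, GRCm38). Mki67 was at 14.4, 10.96 and 9.94 CPM in the control livers, at 28.9, 13.5, 11.96, 32.3 and 7.94 CPM in the vehicle livers and at 46.0, 25.8, 11.9 and 13.2 CPM in the hAAM livers. The highest control liver lay above 3 of the 5 vehicle livers and 2 of the 4 hAAM livers, so the groups overlapped. The means were 11.8 ± 2.31 (SD, n = 3), 18.9 ± 10.9 (SD, n = 5) and 24.2 ± 15.8 CPM (SD, n = 4). In edgeR neither change passed the test, with a log2 fold change of 0.69 (SE 0.51, FDR 0.336) for vehicle and 1.04 (SE 0.54, FDR 0.187) for hAAM. Foxm1, the transcription factor that switches on G2 and mitotic genes (chr6:128362967-128376146, plus strand), was at 0.991, 1.34 and 1.03 CPM in control livers, at 4.04, 2.05, 1.74, 4.08 and 1.36 CPM with vehicle and at 5.88, 3.65, 1.55 and 2.03 CPM with hAAM. Every injured liver was above every control liver, vehicle replicate 5 by little. The edgeR log2 fold change was 1.24 (SE 0.48, FDR 0.070) for vehicle, which missed the threshold, and 1.55 (SE 0.50, FDR 0.046) for hAAM, which passed it. With hAAM it passed in 6 of 12 fits that left out 1 liver.

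The members are next given in groups by role. Over all tested genes, 15.0% were called higher with vehicle and 10.7% with hAAM. With vehicle, 1 call in a group of 7 to 9 is near that share. Of the CDK1-cyclin engine and its activators (Cdk1, Ccna2, Ccnb1, Ccnb2 and Cdc25c), 0 of 5 passed edgeR's test in either comparison with control. An unadjusted p under 0.05 was found for 1 of them with vehicle and 3 with hAAM, beside 4811 and 4175 of 22581 genes higher at that p. DESeq2 called Cdk1 in both comparisons and Ccna2 with hAAM. Cdk1, the mitotic kinase itself (ENSMUSG00000019942, chr10:69335146-69352938, minus strand), was at 1.16, 1.21 and 1.15 CPM in the control livers, at 4.66, 2.61, 1.99, 6.00 and 1.30 CPM in the vehicle livers and at 6.77, 4.22, 1.47 and 2.26 CPM in the hAAM livers. The controls were nearly equal and every injured liver lay above them, yet the injured livers spanned a wide range. The log2 fold changes were 1.50 (SE 0.56, FDR 0.060) and 1.65 (SE 0.58, FDR 0.061) in edgeR, both just above the threshold. Ccnb1, the mitotic cyclin B1 (chr13:100778650-100786570, minus strand), was at 0.610, 0.786 and 0.771 CPM in control livers, at 1.94, 0.749, 1.03, 2.00 and 0.518 CPM with vehicle and at 2.80, 1.57, 0.639 and 0.989 CPM with hAAM. Vehicle replicates 2 and 5 and hAAM replicate 3 fell within or below the control range, and the edgeR FDR was 0.276 and 0.186. Reads can be shared with the processed copies Ccnb1-ps and Ccnb2-ps, which had 1 to 19 and 33 to 90 reads in a liver. How many reads were shared was not measured, so the cyclin B values are uncertain by an unknown amount. Ccna2, cyclin A2, ran from 0.991 to 1.72 CPM in control, 1.51 to 5.12 in vehicle and 2.02 to 6.62 CPM in hAAM livers.

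Among the mitotic kinases (Aurka, Aurkb, Plk1, Ttk, Bub1, Pbk and Melk), only Ttk was called by edgeR in either comparison, 1 of 7. Ttk (Mps1), which starts the spindle checkpoint at unattached kinetochores (ENSMUSG00000038379, chr9:83834689-83872389, plus strand), was at 0.267, 0.488 and 0.316 CPM in the control livers, at 1.34, 0.818, 0.910, 2.37 and 0.503 CPM with vehicle and at 2.61, 1.22, 0.523 and 0.952 CPM with hAAM. All injured livers were above all control livers, but vehicle replicate 5 and hAAM replicate 3 only just. Ttk rose 3.29-fold with vehicle (log2 1.72, SE 0.59, FDR 0.045 in edgeR) and 3.67-fold with hAAM (log2 1.87, SE 0.61, FDR 0.048), both close to the threshold. It passed with vehicle in 4 of 12 fits that left out 1 liver and with hAAM in 3 of 12. Plk1, which drives entry into mitosis and spindle formation, ran from 0.591 to 0.889 CPM in control, 0.636 to 2.00 in vehicle and 0.833 to 2.35 CPM in hAAM livers. Aurka, the kinase of the spindle poles, changed little on the log2 scale: 0.47 (FDR 0.078) with vehicle and 0.34 (FDR 0.229) with hAAM. Pbk ran from 0.210 to 0.409 CPM in control livers, 0.281 to 1.89 with vehicle and 0.597 to 2.19 CPM with hAAM.

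The spindle checkpoint and anaphase-promoting complex group (Bub1, Bub1b, Bub3, Mad2l1, Ttk, Cdc20 and Ube2c) held 1 call of 7 with vehicle, Ttk, and 2 of 7 with hAAM, Ttk and Bub1b. Bub1b (BubR1, ENSMUSG00000040084, chr2:118598211-118641591, plus strand), a part of the complex that inhibits Cdc20, was at 1.22, 1.29 and 1.64 CPM in control livers, at 4.28, 2.14, 2.40, 5.23 and 1.82 CPM in vehicle livers and at 6.38, 4.50, 2.17 and 2.07 CPM in hAAM livers. No injured liver fell into the control range. The log2 fold change was 1.20 (SE 0.45, FDR 0.060 in edgeR) with vehicle and 1.45 (SE 0.46, FDR 0.044) with hAAM. The call with hAAM was made in 4 of 12 fits that left out 1 liver. Bub3, which recruits Bub1 and Bub1b to kinetochores and is also found in resting cells, was even across the groups and ran from 18.7 to 22.3 CPM in control, 20.9 to 24.3 in vehicle and 19.8 to 24.8 CPM in hAAM livers. Its log2 fold changes were 0.11 and 0.09, with 95% intervals from -0.10 to 0.31 and from -0.13 to 0.31. Mad2l1, the Mad2 inhibitor of Cdc20, had log2 fold changes of 0.72 and 0.84 (FDR 0.118 and 0.101 in edgeR).

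The chromosomal passenger complex, which corrects faulty attachments, consists of Aurkb, Birc5 (survivin), Cdca8 (borealin) and Incenp, and 0 of 4 were called in either comparison by edgeR. Incenp came nearest, with 2.33 to 3.76 CPM in control livers, 4.47 to 9.71 with vehicle and 4.09 to 10.8 CPM with hAAM, no overlap, and an FDR of 0.056 and 0.059. DESeq2 called it in both comparisons. Incenp shares its strand with an overlapping unconfirmed transcript, so part of its reads may not be its own. Aurkb, the kinase of the complex, had a log2 fold change of 1.26 (FDR 0.112) with vehicle and 1.42 (FDR 0.106) with hAAM.

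Of the 9 kinesins, Kif20b was called with vehicle and Kif20b and Kif18a with hAAM. Kif20b, a plus-end motor that acts in the last step of cytokinesis (ENSMUSG00000024795, chr19:34922361-34975745, plus strand), was at 0.877, 1.27 and 1.34 CPM in the control livers, at 3.23, 2.11, 2.34, 5.25 and 2.54 CPM in the vehicle livers and at 4.88, 4.07, 1.76 and 2.24 CPM in the hAAM livers. The injured livers were all above control, and vehicle replicate 5, low for most members, lay in the middle of its group here. Kif20b rose 2.66-fold with vehicle (log2 1.41, SE 0.39, FDR 0.018 in edgeR) and 2.78-fold with hAAM (log2 1.47, SE 0.40, FDR 0.024). It was called in 11 of 12 fits that left out 1 liver with vehicle and in 7 of 12 with hAAM. Kif18a, which shortens the plus ends of kinetochore microtubules (chr2:109280738-109341747, plus strand), was at 0.667, 0.834 and 0.810 CPM in control livers, at 1.36, 0.888, 1.08, 1.89 and 1.17 CPM with vehicle and at 2.19, 1.59, 1.07 and 1.14 CPM with hAAM. Its FDR was 0.077 with vehicle (log2 0.73, SE 0.29) and 0.043 with hAAM (log2 0.96, SE 0.30), with no overlap with control in either group. The call with hAAM held in 5 of 12 such fits. The opposite gene Mettl15 overlaps Kif18a, and whether reads were counted by strand was not given in the sources used here. Kif11 (Eg5), the motor that pushes spindle poles apart, ran from 2.21 to 2.49 CPM in control, 1.54 to 4.85 in vehicle and 2.41 to 7.51 CPM in hAAM livers, with an FDR of 0.540 and 0.218. A processed pseudogene overlaps Kif11 on its strand. In all, 16 members overlap another gene of the table, 3 of them (Incenp, Kif11 and Kif15) on the same strand.

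The centromere and kinetochore group (Cenpa, Cenpe, Cenpf, Cenpk, Ndc80, Nuf2, Spc24 and Spc25) held 1 call of 8 with vehicle and 0 with hAAM. Spc25, a subunit of the Ndc80 complex that grips microtubules (ENSMUSG00000005233, chr2:69193895-69206194, minus strand), was at 2.65, 2.15 and 2.05 CPM in control livers, at 4.51, 2.89, 3.85, 5.07 and 5.53 CPM with vehicle and at 3.82, 3.24, 2.69 and 3.92 CPM with hAAM. It did not follow the order of livers seen in the other members: its highest liver was vehicle replicate 5, the lowest injured liver for most of them. Spc25 rose 1.91-fold with vehicle (log2 0.94, SE 0.21, FDR 0.0068 in edgeR), the smallest FDR of any member in that comparison, and its 1.50-fold difference with hAAM had an FDR of 0.078. It was called with vehicle in all 12 fits that left out 1 liver. Its partner Spc24 in the same complex lay at 3.43 to 3.90 CPM in control, 1.48 to 4.25 in vehicle and 3.02 to 3.88 CPM in hAAM livers, and vehicle replicate 5 was its lowest liver. Ndc80 and Nuf2, the other 2 subunits, had log2 fold changes of 0.83 and 1.11 with vehicle (FDR 0.340 and 0.195) and 1.22 and 1.54 with hAAM (FDR 0.198 and 0.109).

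Cenpa, the histone H3 variant that marks centromeres (ENSMUSG00000029177, chr5:30666777-30674830, plus strand), was at 2.73, 3.68 and 3.79 CPM in the control livers, at 4.16, 3.29, 4.36, 4.01 and 3.02 CPM in the vehicle livers and at 5.20, 3.69, 4.12 and 4.41 CPM in the hAAM livers. The 3 groups overlapped, and the livers of each group lay close together. Its log2 fold change was 0.15 (SE 0.17, FDR 0.538 in edgeR) with vehicle and 0.36 (SE 0.17, FDR 0.166) with hAAM. Cenpf, a large protein of the outer kinetochore (ENSMUSG00000026605, chr1:189640606-189688086, minus strand), was at 1.07, 1.68 and 1.74 CPM in control livers, at 3.36, 1.69, 1.59, 4.32 and 0.843 CPM with vehicle and at 6.15, 3.65, 2.09 and 2.24 CPM with hAAM. All 4 hAAM livers but only 2 of the 5 vehicle livers lay above every control liver, and vehicle replicate 5 lay below them all. The FDR was 0.351 for vehicle (log2 0.66, SE 0.51) and 0.117 for hAAM (log2 1.24, SE 0.53).

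Spindle assembly factors (Tpx2, Nusap1, Prc1 and Hmmr) and cytokinesis genes (Anln, Ect2, Racgap1, Kif23, Kif20a and Prc1) had 0 calls of 4 and 0 of 6 in edgeR in both comparisons. Tpx2, which activates Aurora A on the spindle, ran from 1.18 to 1.37 CPM in control, 1.23 to 5.23 in vehicle and 1.47 to 6.79 CPM in hAAM livers (FDR 0.093 and 0.076). Nusap1, which bundles microtubules near chromosomes, moved least of these, with log2 fold changes of 0.08 and 0.18. Anln, the scaffold of the contractile ring, had no overlap with control in either group and log2 fold changes of 1.34 and 1.54 (FDR 0.083 and 0.072). DESeq2 called Tpx2, Anln and Racgap1 in both comparisons.

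Chromosome structure genes were the condensin subunits Smc2, Smc4, Ncapg and Ncapd2 and the topoisomerase Top2a, and Smc2 was called in both comparisons, 1 of 5. Smc2 (ENSMUSG00000028312, chr4:52439243-52488260, plus strand), the core ATPase shared by condensin I and II, was at 3.83, 5.05 and 3.93 CPM in control livers, at 11.8, 8.25, 6.74, 13.3 and 8.31 CPM in vehicle livers and at 14.2, 12.3, 6.45 and 7.71 CPM in hAAM livers. The lowest injured liver was well above the highest control liver. Smc2 rose 2.27-fold with vehicle (log2 1.18, SE 0.29, FDR 0.010 in edgeR) and 2.37-fold with hAAM (log2 1.25, SE 0.30, FDR 0.014). It passed in 12 of 12 fits that left out 1 liver with vehicle and in 10 of 12 with hAAM, the most of any member there. Its partner Smc4 had a higher level and smaller log2 fold changes of 0.35 (FDR 0.166) and 0.54 (FDR 0.065).

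Top2a, which untangles sister chromatids (ENSMUSG00000020914, chr11:98992943-99024189, minus strand), was at 6.40, 7.08 and 5.99 CPM in the control livers, at 18.3, 8.81, 8.96, 20.8 and 5.46 CPM in the vehicle livers and at 29.6, 18.2, 7.57 and 8.76 CPM in the hAAM livers. Vehicle replicate 5 was below all controls, while the other 8 injured livers were above them. The log2 fold change was 0.94 (SE 0.50, FDR 0.171 in edgeR) with vehicle and 1.30 (SE 0.52, FDR 0.095) with hAAM.

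**Figure D4:**
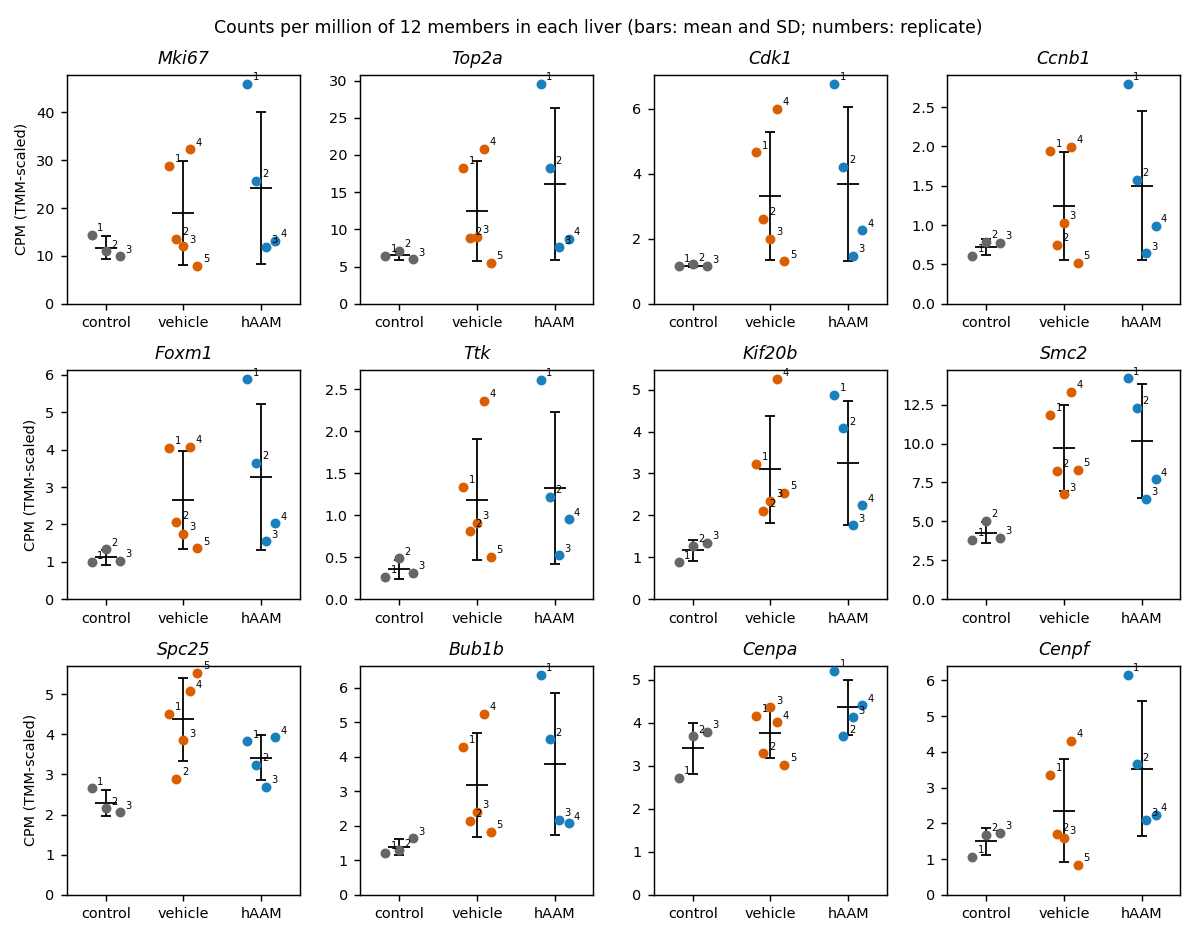
CPM of 12 members is plotted for every control (grey), vehicle (orange) and hAAM (blue) liver, numbered by replicate, with bars for the mean and SD. hAAM replicate 1 and vehicle replicates 1 and 4 stand high in most panels (46.0, 28.9 and 32.3 CPM of Mki67), while Spc25 is highest in vehicle replicate 5 (5.53 CPM) and the Cenpa groups overlap.

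Whether hAAMs altered these genes in injured liver was asked by comparing hAAM with vehicle livers. None of the 51 members was called in edgeR, where 0% of all genes were called either way, and DESeq2 called none of the members. 0 members had an unadjusted p under 0.05, beside 5.02% of all genes. In no member was every hAAM liver above every vehicle liver, beside 0.709% of all genes. The log2 fold change was positive in 47 members and negative in 4, with a median of 0.20 beside 0.0032 over all genes, and ran from -0.36 for Spc25 to 0.58 for Cenpf. Without vehicle replicate 3 and hAAM replicate 4, the close pair, the median was 0.28 and edgeR called no member. Without hAAM replicate 1 the median was -0.16, so the direction rested on that liver.

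The smallest p of the members in this comparison belonged to Spc25 (log2 -0.36, SE 0.19, 95% interval -0.76 to 0.05, edgeR FDR 0.966), followed by Cenpa (0.21, SE 0.15, interval -0.12 to 0.54) and Cenpf (0.58, SE 0.44, interval -0.38 to 1.54). For Mki67 the log2 fold change was 0.36 (SE 0.46, interval -0.64 to 1.35), and for Top2a it was 0.36 (SE 0.44, interval -0.58 to 1.31). Cdk1 had 0.15 (interval -0.87 to 1.17) and Foxm1 0.30 (interval -0.59 to 1.19). All 51 intervals included 0, 30 of them included a 2-fold rise, and none included a fall to 0.5 times the vehicle level. The half-width of these intervals had a median of 0.874 on the log2 scale and ran from 0.189 for Bub3 to 1.18 for Cdc25c. Each interval belongs to the test of 1 member with no adjustment over genes.

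Other genes of the cell cycle were counted from lists of the same pathway. Of 82 other mitosis genes, 26 (31.7%) were called higher and 2 lower with vehicle, beside 15.0% and 14.8% of all genes. With hAAM 21 (25.6%) were called higher and 2 lower, beside 10.7% and 9.96%. Their median log2 fold changes were 0.66 and 0.80. Cenph and Cenpi, subunits of the inner kinetochore, had log2 fold changes of 2.05 (FDR 0.011 in edgeR) and 1.90 (FDR 0.0095) with vehicle and 2.04 (FDR 0.019) and 1.85 (FDR 0.018) with hAAM. Wee1, the kinase that keeps CDK1 off, rose by 1.98 (FDR 0.00016) and 1.64 (FDR 0.00099). Mad1l1, the Mad1 checkpoint protein, fell in both comparisons (log2 -0.80, FDR 0.0076, and -0.70, FDR 0.026). Pttg1, securin, was lower with vehicle (log2 -0.30, FDR 0.040) and Lin37, a MuvB subunit, with hAAM (log2 -0.42, FDR 0.042).

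S-phase genes encode the machinery that copies DNA. Of 28, 20 (71.4%) were called higher and 1 lower with vehicle, beside 15.0% and 14.8% of all genes. With hAAM 16 (57.1%) were called higher and 1 lower, beside 10.7% and 9.96%. The median log2 fold changes were 0.99 and 0.90. Cdc6, which loads the replicative helicase, had log2 fold changes of 2.32 (FDR 0.012 in edgeR) and 2.47 (FDR 0.015). Mcm6, a subunit of that helicase, rose by 1.93 (FDR 0.0027) and 1.86 (FDR 0.0060), and the uracil glycosylase Ung was the gene that fell (log2 -0.58, FDR 0.039, and -0.84, FDR 0.014). In vehicle replicate 5 the S-phase median lay 0.613 above the control mean on the log2 scale, while the median of that liver was -0.051 over the 51 members and 0.272 over the 82 other mitosis genes. Between hAAM and vehicle, 0 of 82 other mitosis genes and 0 of 28 S-phase genes were called by edgeR, with median log2 fold changes of 0.021 and 0.00067, and 1 and 0 of them had an unadjusted p under 0.05.

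Of the 5 G1 cyclin and kinase genes, Cdk6 was called higher in both comparisons with control (log2 0.97, FDR 0.0012 in edgeR, and 0.73, FDR 0.0094). Of 9 tested inhibitors, Cdkn1a, the p53 target p21, rose by 1.32 (FDR 0.0070) and 1.52 (FDR 0.0070), and Cdkn2b was called in both and Rbl1 with hAAM. Among 4 E2F factors, E2f1 was called higher in both comparisons and E2f2 with vehicle. These lists are short, and 15.0% of all genes were called higher with vehicle and 10.7% with hAAM. E2f8, a repressor of cell-cycle genes that takes part in hepatocyte polyploidy, lay at 23.4 to 37.8 CPM in control, 3.73 to 10.1 in vehicle and 5.07 to 7.73 CPM in hAAM livers (log2 -2.33, FDR 0.00024, and -2.36, FDR 0.00057).

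Markers of some other cell types also differed between the livers, and not all in the order of the members. In bulk tissue, more cells of a type and more RNA per cell cannot be told apart. The summed level of 7 monocyte and macrophage markers was 144.9 to 153.8 CPM in the control livers, 396.5, 284.5, 223.9, 414.2 and 262.1 CPM in the vehicle livers and 452.7, 397.5, 295.5 and 220.5 CPM in the hAAM livers. 5 of these 7 markers were called higher in each comparison with control, beside 15.0% of all genes with vehicle and 10.7% with hAAM. None was at 0 in any liver. The sum of 6 stellate cell and fibroblast markers was 296.5 to 449.9 CPM in control, 776.8, 466.4, 459.7, 822.6 and 528.3 CPM in vehicle and 1017, 860.6, 458.4 and 454.5 CPM in hAAM livers. Vehicle replicates 1 and 4 and hAAM replicates 1 and 2, the livers in which the members were high, also had the highest sums in both lists. The median log2 difference from control of the stellate cell and fibroblast list gave another order. By that measure vehicle replicate 5 (0.775), where the members lay at the control level, was above vehicle replicate 1 (0.747). 2 of the 6 stellate cell and fibroblast markers were called higher in each comparison with control, beside the same shares of all genes. The part of either list in the mitosis result was not tested.

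Vehicle replicate 5, where the members were lowest, had 2033 CPM of erythroid markers and 90.1 CPM of B cell markers, while the other vehicle livers had 222.5 to 520.7 and 4.86 to 6.33 CPM. With that liver and the close pair of libraries all left out, edgeR called 21 members (41.2%) with vehicle, beside 14.2% of all genes. It called 17 (33.3%) with hAAM, beside 10.7%. This setting was chosen after seeing the data, and it leaves out the vehicle liver in which the members were lowest. Such a choice favours more calls with vehicle, so these counts are no support for a rise. The summed hepatocyte markers lay between 66699 and 103893 CPM over all 12 livers. Of these 7 markers, 2 were called lower with vehicle and 1 with hAAM, beside 14.8% and 9.96% of all genes. The endothelial sum was 294.9 to 323.2 CPM in control and 312.6 to 438.5 CPM in injured livers, highest in vehicle replicate 5. The neutrophil sum was also highest in vehicle replicate 5 (23.7 CPM). The Kupffer cell sum was highest in vehicle replicate 1 (305.8 CPM), followed by hAAM replicate 3 (281.8 CPM), and lay at 227.5 and 218.1 CPM in hAAM replicates 1 and 2. The share of counts on mitochondrial genes lay between 4.12% and 6.14%, lowest in hAAM replicate 1. What these values contribute to the mitosis genes was not tested.

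**Figure D5:**
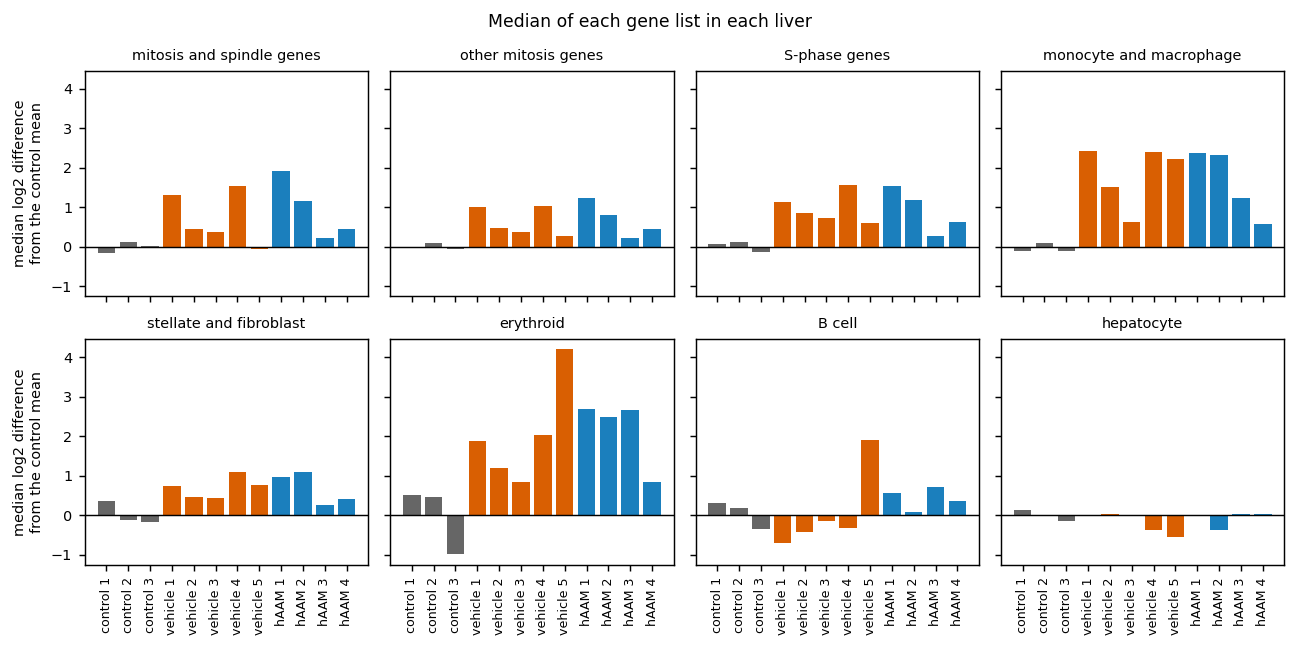
Bars give, for each liver, the median over a gene list of the log2 difference from the mean of the 3 control livers, for the members, other mitosis genes, S-phase genes and 5 cell type lists. The members, other mitosis genes, S-phase genes and monocyte and macrophage markers share their 4 highest livers (members 1.31, 1.54, 1.91 and 1.16), but the monocyte and macrophage median of vehicle replicate 5 (2.21) lies close below those 4 (2.33 to 2.42). Vehicle replicate 5 also stands out in erythroid and B cell markers.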

How the data were processed

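Liver RNA of 12 mice was sequenced after depletion of ribosomal RNA with a directional kit, and fragmentation time depended on RNA quality. Per the submitters' processing notes, reads were trimmed with cutadapt 4.6, aligned to GRCm38 with STAR 2.7.1a, checked with MultiQC 1.25 and tested with DESeq2 1.38.3. The authors counted reads per gene with summarizeOverlaps and deposited raw counts, not normalized. The strand setting of the counting was not given in the sources used here, and genes with a total under 15 were not among those used.

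Groups and replicate numbers came from the sample labels, and all 12 columns were matched to a sample. GENCODE gene models on GRCm38 gave symbols, coordinates and exon lengths, with a symbol for 24128 of 24187 genes. Counts were filtered with filterByExpr by group, scaled with TMM and fitted in 1 quasi-likelihood model in R 4.3.3 with edgeR 4.0.16 (biological coefficient of variation 0.214). Tests were two-sided. log2 CPM carried a prior count of 2, and intervals are 95% intervals from the fit. DESeq2 1.42.0, run with its own size factors, was an alternative, as were other scaling factors, no filter, separate fits, a replicate block and leaving livers out. Both tests were tried on simulated counts first. Promoter sequences are RefSeq's.

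The members and all gene lists were chosen with earlier results of these data known. Values in every liver are given for 5 fixed members (Mki67, Top2a, Cdk1, Ccnb1 and Foxm1), for up to 5 called members with the largest change in each comparison with control (4 were called with vehicle) and for the 3 with the smallest p between treatments. Kif18a, the other called member, was described after its values were seen, as were the members and listed genes given by their range or fold change. Among the markers, Elane did not pass the filter, and Ahsp and Mpo were not analysed here. Of 9 erythroid markers, 8 were among the genes of the count table and 7 passed the filter. Of 6 neutrophil markers, 5 were among those genes and 4 passed. Intervals and counts cover the spread of these livers at their depth of 47391650 to 74056505 counts.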

Additional observations from a re-analysis of the deposited data

Results flagged for a closer look

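In groups of 4 or 5 livers, 134 sets of values were examined: member CPM, the summed CPM of each list and the median over the members. In 8 of these sets 1 liver lay far from the rest by Dixon's criterion, and chance alone picks about 1 in 20. 3 of them were members, all in hAAM replicate 1. Kif20a, a kinesin of the central spindle, was at 3.63 CPM there and at 1.62 to 1.89 CPM in the other hAAM livers. Plk1 was at 2.35 CPM beside 0.833 to 0.963 CPM. Ube2c, the ubiquitin-conjugating enzyme of the anaphase-promoting complex, was at 2.27 CPM beside 0.678 to 0.765 CPM.

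The other 5 were lists. The B cell list summed to 90.1 CPM in vehicle replicate 5, beside 4.86 to 6.33 CPM in the other vehicle livers. In the same liver the erythroid list summed to 2033 CPM, beside 222.5 to 520.7 CPM. The cholangiocyte list summed to 300.6 CPM in vehicle replicate 4, beside 64.1 to 130.1 CPM. The T and NK cell list summed to 4.43 CPM in hAAM replicate 3, beside 1.81 to 2.25 CPM. The cell-cycle inhibitor list was low in hAAM replicate 4, at 115.6 CPM beside 143.5 to 146.5 CPM.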

How the results depend on the processing

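The number of members called against control depended on the setting, while the direction did not: the median log2 fold change of the members stayed between 0.63 and 1.01 with vehicle and between 0.72 and 1.27 with hAAM when each liver was left out in turn. The count with vehicle (4) was 15 with DESeq2, 28 with scaling by library size alone, 10 with the 2 groups fitted alone, 7 without hAAM replicate 4 and vehicle replicate 3, 21 without these and vehicle replicate 5, and 18 with DESeq2 without the first 2. The share of all genes called higher was 17.1%, 38.2%, 16.2%, 16.0%, 14.2% and 17.6% in the same order, beside 15.0%. The count with hAAM (6) was 22, 31, 3, 9, 17 and 29, where 13.6%, 29.0%, 6.56%, 11.1%, 10.7% and 14.0% of all genes were called higher, beside 10.7%. The last 2 settings were chosen after seeing the data. Scaling by library size alone also moved the median of all genes to 0.36 with vehicle and 0.32 with hAAM, from 0.01 and 0.02. Leaving out 1 liver gave 2 to 13 calls with vehicle (2 without control replicate 1, 8 without vehicle replicate 3 or hAAM replicate 3, 12 without vehicle replicate 5, 13 without hAAM replicate 1) and 0 to 23 with hAAM. Over these fits 9.64% to 16.1% and 4.82% to 12.9% of all genes were called higher. DESeq2 size factors in edgeR and no filter gave the same counts and the same genes. The cause of these changes was not tested, beyond there being fewer livers in the fits that left some out.

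Between hAAM and vehicle the count was 0 in every setting, and the median ran from -0.16 (without hAAM replicate 1) to 0.44 when 1 liver was left out. Over these fits Mki67 ran from -0.16 to 0.64, Top2a from -0.11 to 0.63, Cdk1 from -0.32 to 0.48, Ccnb1 from -0.22 to 0.52, Foxm1 from -0.14 to 0.54, Ttk from -0.40 to 0.58, Kif20b from -0.20 to 0.34, Smc2 from -0.14 to 0.23 and Bub1b from -0.12 to 0.51, each lowest without hAAM replicate 1. Kif20b was also negative without vehicle replicate 2 (-0.05), vehicle replicate 3 (-0.02), vehicle replicate 5 (-0.00026) or hAAM replicate 2 (-0.07), Smc2 without vehicle replicate 3 (-0.04) or hAAM replicate 2 (-0.04), and Cdk1 (-0.06) and Ttk (-0.04) without vehicle replicate 5. With hAAM replicate 4 and vehicle replicates 3 and 5 all left out, Cdk1 was at -0.10, Ttk at -0.065 and Smc2 at -0.026.

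Livers with the same replicate number did not deviate together: over 10 such pairs the correlation of deviations from the group means ran from -0.458 to 0.385, and 3 were over 0.1. With the replicate number as a block, the counts were 2 with vehicle (Spc25 and Smc2, beside 9.70% of all genes), 1 with hAAM (Smc2, beside 6.91%) and 0 between treatments, where the median was 0.0086 and Cdk1 (-0.091) and Ttk (-0.075) turned negative. How far depth limits members of low count, such as Cdc25c with 4 to 44 reads in a liver, was not tested.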
